A study of Mus musculus with 20 samples.

Results

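Ionotropic glutamate receptors of the kainate and AMPA classes were measured as transcripts of 9 subunit genes, Grik1 to Grik5 and Gria1 to Gria4, in mouse lumbar dorsal root ganglia (L3 to L5), paired structures along the spine that hold the cell bodies of sensory neurons. Grik1 had been singled out for its lower count in animals deleted for Prdm12, and the other 8 genes were taken as the remaining subunits of both classes. The 9 genes are 9 of the 55416 genes counted in each library, and all 9 were among the 18787 genes with enough counts to be tested. The question was whether the lower Grik1 level was shared, or offset, by other subunits. All animals were adult C57Bl6 mice with both alleles of Prdm12 floxed (P12 Fl/Fl), and all received tamoxifen 1 month before sampling. The inducible conditional knockout animals (icKO) also carried an inducible Cre recombinase, named AdvCreERT2 in the sample characteristics and Rosa26CreERT2 in the series text, so the cells in which deletion could occur are not settled by the labels. Control animals carried the floxed alleles and no Cre in their label. Each animal gave 1 library labelled formalin and 1 labelled noninjected, from polyA RNA of the whole ganglia.

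For 4 of the 10 animals the sample title and the name of the deposited count table give different genotypes, namely those titled control 1, control 4, icKO 2 and icKO 3. Groups here follow the deposited names, which give 5 icKO animals (titled control 1, control 4, icKO 1, icKO 4 and icKO 5) and 5 control animals (titled control 2, control 3, control 5, icKO 2 and icKO 3). The icKO group holds 2 females and 3 males, and the control group 3 females and 2 males. The subunit genes were also compared over the 6 animals whose records agree (3 icKO and 3 control) and by title. Of 20 libraries, 19 held 11763893 to 22392635 counts. The library titled icKO 1 formalin held 2829 counts and was left out, so that icKO formalin has 4 libraries and the other 3 groups have 5 each. Levels are counts scaled to a common library size after TMM normalization (CPM), either per library or over both libraries of an animal ("animal totals"). Prdm12 itself averaged 23.8 ± 6.26 CPM in icKO and 90.6 ± 11.7 CPM in control animals (SD, n = 5 each). The animals titled control 1 and control 4 had 26.0 and 33.2 CPM of Prdm12, and those titled icKO 2 and icKO 3 had 73.3 and 98.3 CPM. Of the Prdm12 exons, 8.09% overlap an antisense gene, Gm13425, from which reads cannot be told apart in libraries without strand.

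Dorsal root ganglion neurons release glutamate at their central ends and carry glutamate receptors themselves. A kainate or AMPA receptor is a channel built from several subunits. GluK1, GluK2 and GluK3, encoded by Grik1, Grik2 and Grik3, can form kainate channels on their own, whereas GluK4 and GluK5, encoded by Grik4 and Grik5, bind the agonist with high affinity and need a partner from the first set. GluK1 is the kainate subunit long associated with small-diameter sensory neurons. AMPA receptors are assembled from GluA1 to GluA4, the products of Gria1 to Gria4, and carry most fast excitatory transmission in the central nervous system. Prdm12 encodes a transcriptional regulator of the nociceptor lineage, the neurons that sense noxious stimuli.

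The subunits share a pore loop, and a glutamine codon in it is the Q/R site. In Gria2, Grik1 and Grik2 this codon is known to be changed by A-to-I RNA editing, which lowers the calcium permeability of the channel. The stretch of 60 coding bases around this codon is shown because it marks what unites and separates the 9 genes, with the pore glutamine codon in capitals (from GENCODE M21 transcripts on GRCm38, sense strand, 5′ to 3′).
Grik1: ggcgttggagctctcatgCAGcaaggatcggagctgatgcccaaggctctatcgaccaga
Grik2: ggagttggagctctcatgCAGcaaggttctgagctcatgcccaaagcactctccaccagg
Grik3: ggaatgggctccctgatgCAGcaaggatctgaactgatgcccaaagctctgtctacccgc
Grik4: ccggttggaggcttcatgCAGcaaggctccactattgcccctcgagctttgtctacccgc
Grik5: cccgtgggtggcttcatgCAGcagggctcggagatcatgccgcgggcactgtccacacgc
Gria1: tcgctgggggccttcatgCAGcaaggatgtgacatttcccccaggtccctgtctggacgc
Gria2: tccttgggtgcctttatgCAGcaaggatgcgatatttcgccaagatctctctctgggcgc
Gria3: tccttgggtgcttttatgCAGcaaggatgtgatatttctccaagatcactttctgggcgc
Gria4: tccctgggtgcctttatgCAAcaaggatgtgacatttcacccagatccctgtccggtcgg
The codon was CAG in all but Gria4, which had CAA. Grik1 shared 51 of the 60 bases with Grik2, 46 with Grik3, 40 with Grik5 and 35 with Grik4. Over whole transcripts the genes were distinct: at most 0.159% of the 50-base words of a subunit gene (Gria4) also occurred in another subunit gene. Gene counts hold no record of editing, which was not measured here.

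Grik1 was the most abundant of the 9 transcripts per kilobase of exon in both genotypes, and in icKO animals it stood at about 52.5% of the control level. It reached 204, 160.0 and 151 CPM in the icKO animals titled icKO 1, 4 and 5 and 199 and 191 CPM in those titled control 1 and 4. Control animals had 339, 337 and 357 CPM (titled control 2, 3 and 5) and 353 and 362 CPM (titled icKO 2 and 3). Every icKO animal lay below every control animal, and the 4 animals whose records differ lay with the group of their deposited name. The log2 fold of icKO over control was -0.93 (SE 0.081) over the 10 animals and -1.01 (SE 0.11) over the 6 animals whose records agree. Grouped by title it was -0.36 (SE 0.32). These differences chose the gene and are given as a description. In bulk ganglia, fewer cells that carry a transcript and less transcript per cell cannot be told apart.

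**Figure D1:**
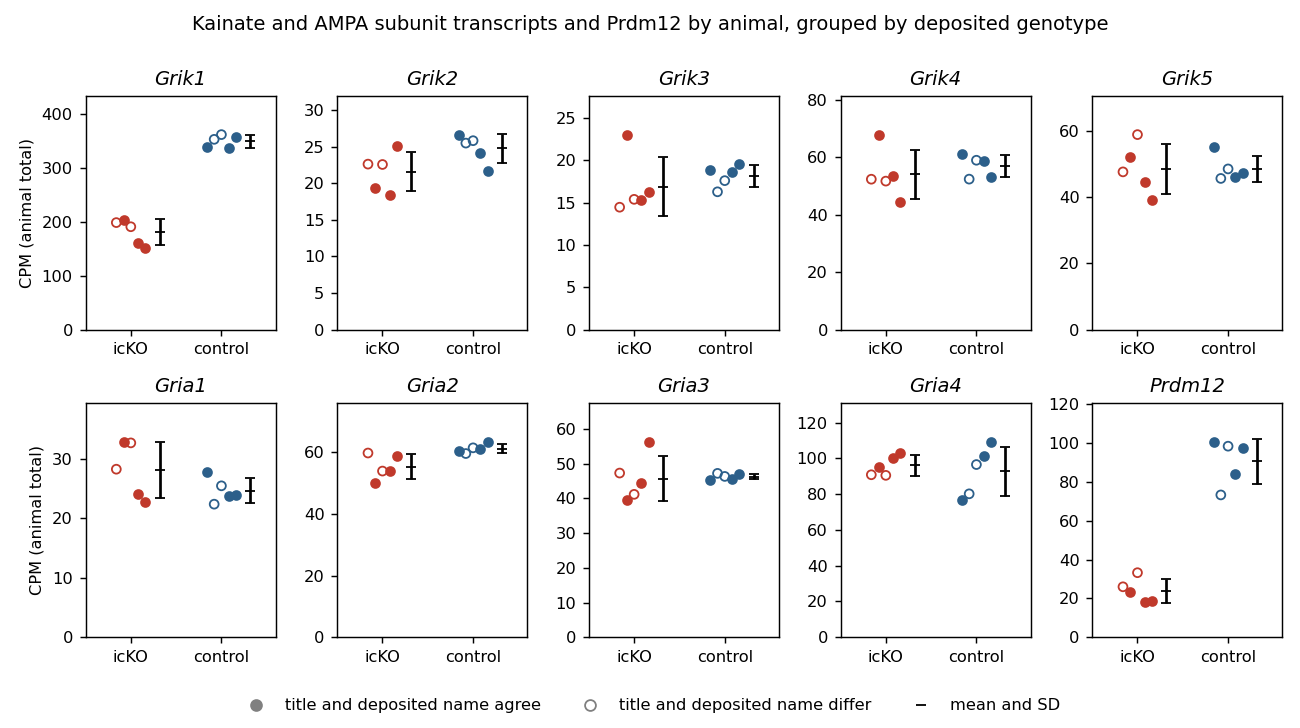
Level of each subunit gene and of Prdm12 in the total of each animal (CPM, y axis from 0, a scale of its own per gene), with icKO left of control by deposited name; filled points are animals whose title and deposited name match, open points those that differ, and bars give the mean and SD of 5 animals. Grik1 and Prdm12 separate the groups, and the points of the other 8 subunit genes overlap between them.

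None of the other 8 subunit genes differed between icKO and control animals at an adjusted p of 0.05 (edgeR quasi-likelihood test, Benjamini-Hochberg over 18787 genes). Of all genes tested, 1.09% were called in this comparison (0.601% higher and 0.484% lower in icKO). None was called over the 6 agreeing animals either, where 0.895% of genes were called (0.602% higher and 0.293% lower), nor by title, where 0.0% were called (1769 genes had an unadjusted p below 0.05, and DESeq2 called 71). The groups were also compared by whether they overlapped: 2.15% of the genes had every icKO animal below every control animal, and 2.05% had every one above. None of the 8 was separated in this way. Over the 6 agreeing animals the log2 folds of the 8 genes ran from -0.20 for Grik2 to 0.075 for Gria4, and by title from -0.17 for Grik5 to 0.074 for Gria4. Gria1 was the gene that depended most on the grouping, at 0.21 by deposited name, 0.068 over the 6 agreeing animals and -0.12 by title.

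Among the kainate subunits that can form channels alone, Grik2, the closest relative of Grik1 in the pore stretch, had 19.3, 18.4 and 25.0 CPM in the animals titled icKO 1, 4 and 5 and 22.6 and 22.6 CPM in those titled control 1 and 4, all deposited as icKO. Control animals had 26.6, 24.2 and 21.7 CPM (titled control 2, 3 and 5) and 25.5 and 25.8 CPM (titled icKO 2 and 3). The groups overlapped, with 2 icKO animals below every control animal. The log2 fold was -0.18 (SE 0.093, adjusted p = 0.341), and its 95% interval ran from 76.6% to 102% of the control level. Grik3, whose product has the lowest agonist sensitivity of the class, averaged 16.9 ± 3.49 CPM in icKO and 18.2 ± 1.27 CPM in control animals (SD, n = 5 each). In 4 icKO animals Grik3 lay below every control animal, and in the animal titled icKO 1, at 23.1 CPM, it lay above all of them. Its log2 fold was -0.11 (SE 0.13, adjusted p = 0.699).

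The high-affinity subunits gave no call either. Grik4 averaged 54.0 ± 8.53 CPM in icKO and 56.8 ± 3.84 CPM in control animals (SD, n = 5 each). Its log2 fold was -0.053 (SE 0.096, adjusted p = 0.815), with an interval of 83.4% to 111% of the control level. Grik5 averaged 48.4 ± 7.48 CPM in icKO and 48.5 ± 3.86 CPM in control animals, a log2 fold of 0.012 (SE 0.10, adjusted p = 0.971; interval 86.3% to 118% of control). For both genes, icKO animals lay on either side of the control range. Without the icKO 5 formalin library, the log2 fold of Grik4 was 0.004.

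Of the AMPA subunits, Gria2 and Gria1 had the largest differences, in opposite directions, and neither was called. Gria2, whose edited subunit keeps calcium out of the channel, had 50, 54.0 and 58.9 CPM in the animals titled icKO 1, 4 and 5 and 59.7 and 53.8 CPM in those titled control 1 and 4, all deposited as icKO. Control animals had 60.2, 61.1 and 63.2 CPM (titled control 2, 3 and 5) and 59.5 and 61.4 CPM (titled icKO 2 and 3). Only the icKO animal titled control 1 reached the control range. The log2 fold was -0.15 (SE 0.060, adjusted p = 0.243), with an interval of 82.3% to 98.8% of control before adjustment. Gria1 averaged 28.2 ± 4.68 CPM in icKO and 24.7 ± 2.06 CPM in control animals. In 3 icKO animals Gria1 lay above every control animal, and the log2 fold was 0.21 (SE 0.11, adjusted p = 0.333; interval 98.6% to 136% of control).

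Gria3 and Gria4 lay nearer to the control level. Gria3 averaged 45.7 ± 6.58 CPM in icKO and 46.3 ± 0.812 CPM in control animals, and its spread was wider in icKO: 3 icKO animals lay below every control animal and 2 above. Its log2 fold was -0.03 (SE 0.087, adjusted p = 0.895). Gria4 averaged 96.1 ± 5.65 CPM in icKO and 92.8 ± 13.9 CPM in control animals, and every icKO animal lay inside the control range. Its log2 fold was 0.017 (SE 0.084, adjusted p = 0.942; interval 89.1% to 115% of control).

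**Figure D2:**
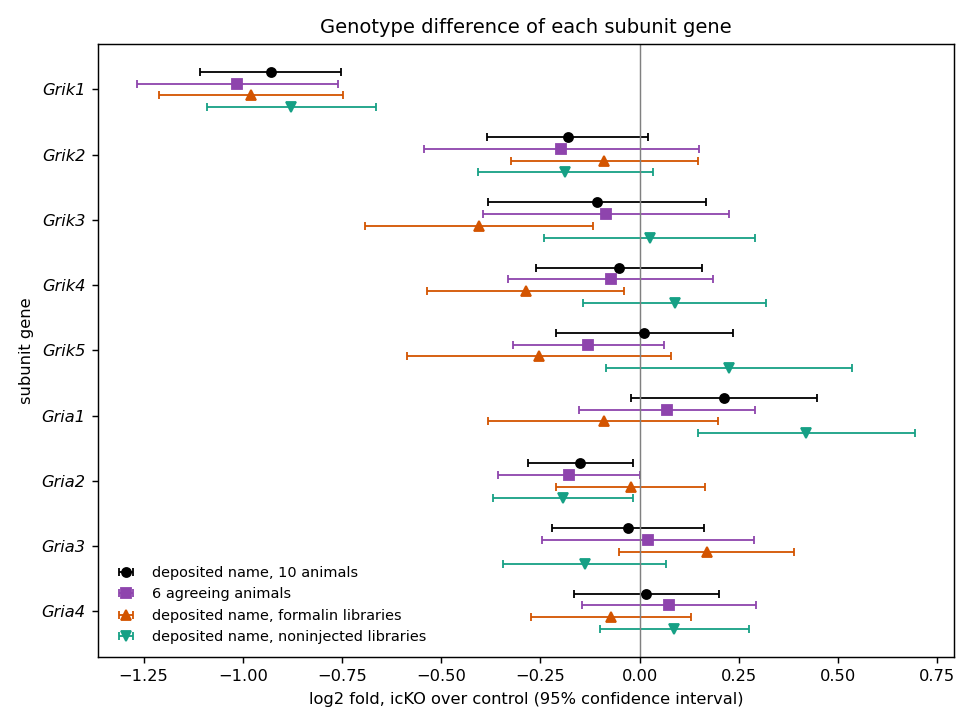
Log2 fold of icKO over control (x axis) with its 95% confidence interval for each subunit gene (y axis), over the 10 animals by deposited name, over the 6 animals whose title and deposited name agree, and over the formalin and the noninjected libraries by deposited name. Grik1 lies between -0.88 and -1.01, and the other genes lie between -0.41 and 0.42, with Grik3 lowest in formalin libraries and Gria1 highest in noninjected libraries.

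Dividing by exon length put the subunits on one scale of transcript level (CPM per kilobase). In control animals, Grik1 stood at 52.0 ± 1.70, above 95.9% of the tested genes, and was followed by Gria4 at 14.7 ± 2.2 (SD, n = 5). Grik4 and Grik5 came next at 9.53 ± 0.644 and 9.39 ± 0.747 CPM per kilobase, with overlapping ranges. Gria3, Gria1 and Gria2 followed at 4.69 ± 0.0823, 4.08 ± 0.341 and 3.93 ± 0.0893, where each overlapped its neighbour. Grik3 and Grik2 were the lowest, at 2.03 ± 0.142 and 1.87 ± 0.147, and their ranges also overlapped. This order rests on the length of all annotated exons, such as 15548 bp for Gria2, 13246 bp for Grik2 and 5168 bp for Grik5. In plain CPM, Grik1 and Gria4 were still the highest in control animals, but Gria2 (61.1 CPM) lay above Grik4 (56.8 CPM) and Grik5 (48.5 CPM). Grik2 (24.8 CPM) lay beside Gria1 (24.7 CPM). In icKO animals, Grik1 at 26.9 ± 3.55 CPM per kilobase still lay above Gria4 at 15.2 ± 0.895 in all 5 animals. The order below them changed only between neighbours whose ranges overlapped (Grik4 with Grik5, and Gria1 with Gria3).

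Over animal totals, the summed kainate transcript level was lower in icKO animals, and nearly all of the difference was Grik1. Because Grik1 was chosen for its lower level and made up 69.5% of the control sum, the lower sum follows from that choice. The 5 kainate genes summed to 48.9 ± 5.89 CPM per kilobase in icKO and 74.8 ± 1.62 in control animals (SD, n = 5 each), and the ranges were 41.2 to 55.8 and 72.8 to 77.1. Without Grik1, the other 4 kainate genes summed to 21.9 ± 2.60 in icKO and 22.8 ± 1.42 in control animals, with overlapping ranges. Within agents this sum differed in opposite directions. In formalin libraries it was 19.3 ± 3.54 in icKO (n = 4) and 23.7 ± 2.16 in control (n = 5). In noninjected libraries it was 23.7 ± 2.07 in icKO and 22.1 ± 1.78 in control (n = 5 each). The ranges overlapped for both agents, and these sums were not tested. The 4 AMPA genes summed to 28.1 ± 0.875 in icKO and 27.4 ± 2.2 in control animals. Set as differences of icKO minus control, Grik1 gave -25.1 CPM per kilobase, the other kainate genes -0.87 and the AMPA genes 0.67. If each of the 4 other kainate genes stood at the upper end of its 95% interval, they would together add 3.03 CPM per kilobase, and the 4 AMPA genes in the same way 4.19. Grik1 made up 55.1 ± 1.79% of the kainate sum in icKO and 69.5 ± 1.76% in control animals.

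**Figure D3:**
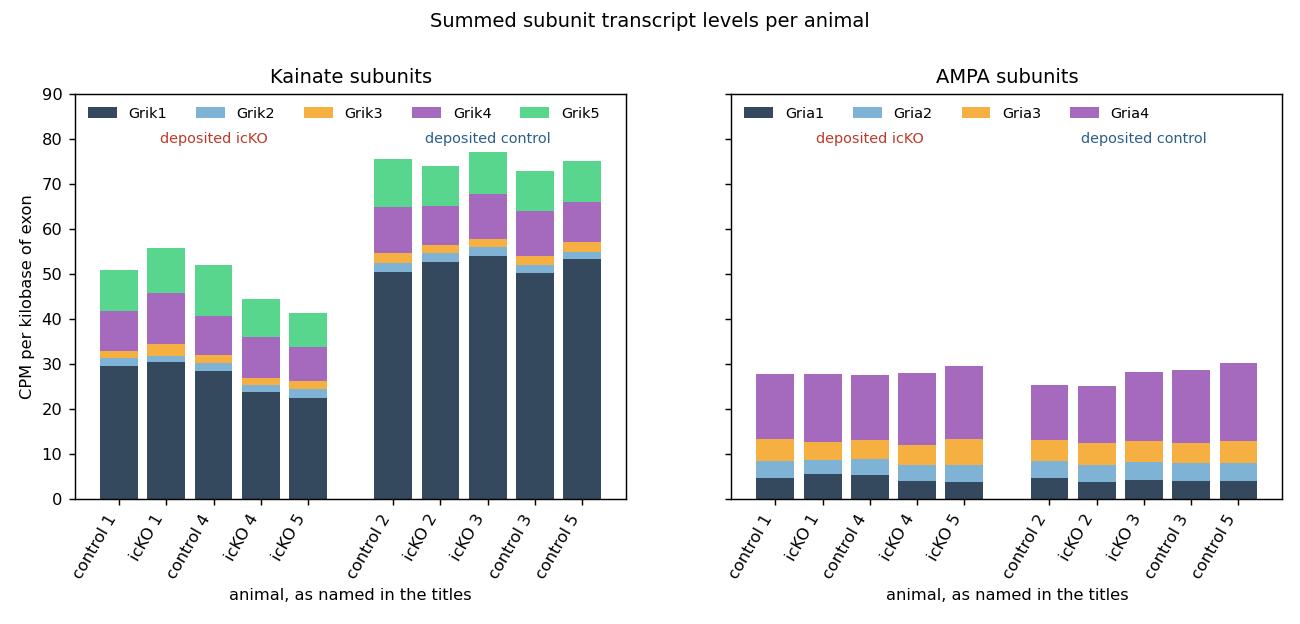
Transcript level per kilobase of exon (CPM per kilobase, y axis from 0) of the kainate subunit genes (left panel) and the AMPA subunit genes (right panel), stacked for each of the 10 animals, with the 5 deposited as icKO left of the 5 deposited as control. The Grik1 segment is the part of the kainate stack that differs between the groups, and the AMPA stacks lie between 25.0 and 30.1 in all animals.

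Within the AMPA class, Gria4 gave 54.2 ± 2.11% of the summed level in icKO and 53.4 ± 3.86% in control animals. The share of Gria2 was 12.7 ± 0.813% in icKO and 14.4 ± 0.872% in control animals, with ranges of 11.6 to 13.8% and 13.5 to 15.4%. Gria1 made up 16.7 ± 3.12% in icKO and 15.0 ± 1.96% in control animals. The kainate to AMPA ratio of summed levels was 1.74 ± 0.249 in icKO and 2.74 ± 0.226 in control animals. These shares follow from the levels above and carry no test of their own.

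The genotype difference was next read within each agent, in a fit of all 19 libraries. This fit had no term for the animal, so both libraries of an animal entered its estimate of spread as separate replicates. Among formalin libraries, 3.96% of 17671 genes were called between icKO and control (3.05% higher and 0.905% lower in icKO), and among noninjected libraries 9.38%. Every icKO library lay below every control library for 2.68% of genes with formalin and 4.03% without injection, and above for 3.08% and 4.24%. Grik1 had 194, 223, 157 and 137 CPM in icKO formalin libraries (titled control 1, control 4, icKO 4 and icKO 5) and 371, 368, 349.7, 347 and 378 CPM in control formalin libraries (titled control 2, 3 and 5 and icKO 2 and 3). In noninjected libraries Grik1 spanned 168 to 206 CPM in icKO and 311 to 372 CPM in control. The log2 folds were -0.98 (SE 0.11) with formalin and -0.88 (SE 0.10) without injection. Their difference was -0.10 (SE 0.15, adjusted p = 0.702), smaller than its own error.

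Gria1 was the one other subunit gene called in any of these comparisons, higher in icKO in the noninjected libraries, where 5.86% of genes were called higher. It had 33.2, 27.5 and 28.7 CPM in the icKO noninjected libraries titled icKO 1, 4 and 5 and 27.7 and 36.5 CPM in those titled control 1 and 4. Control noninjected libraries had 26.1, 20.1 and 20.8 CPM (titled control 2, 3 and 5) and 24.1 and 26.5 CPM (titled icKO 2 and 3). The groups did not overlap. The log2 fold was 0.42 (SE 0.13, adjusted p = 0.0488, edgeR). The call was at the edge of the threshold: it was lost in 16 of 25 alternative fits, whose adjusted p ran from 0.00626 to 0.14, and leaving out the control 3 noninjected library gave 0.14. In formalin libraries Gria1 gave 17.9 to 28.7 CPM in icKO and 21.3 to 30.2 CPM in control, a log2 fold of -0.091 (SE 0.14, adjusted p = 0.777).

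Grik3 showed the reverse arrangement and was not called. It had 14.7, 15.3, 15.1 and 12.0 CPM in the icKO formalin libraries titled control 1, control 4, icKO 4 and icKO 5. Control formalin libraries had 18.2, 20.9 and 21.0 CPM (titled control 2, 3 and 5) and 15.4 and 19.1 CPM (titled icKO 2 and 3). The groups did not overlap, and the log2 fold was -0.41 (SE 0.14, adjusted p = 0.108). Without injection, Grik3 spanned 14.1 to 23.3 CPM in icKO and 16.04 to 19.6 CPM in control, a log2 fold of 0.025 (SE 0.13, adjusted p = 0.924). Grik4 and Grik5 gave log2 folds of -0.29 (SE 0.12, adjusted p = 0.201) and -0.25 (SE 0.16, adjusted p = 0.43) with formalin and of 0.088 and 0.23 without injection.

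**Figure D4:**
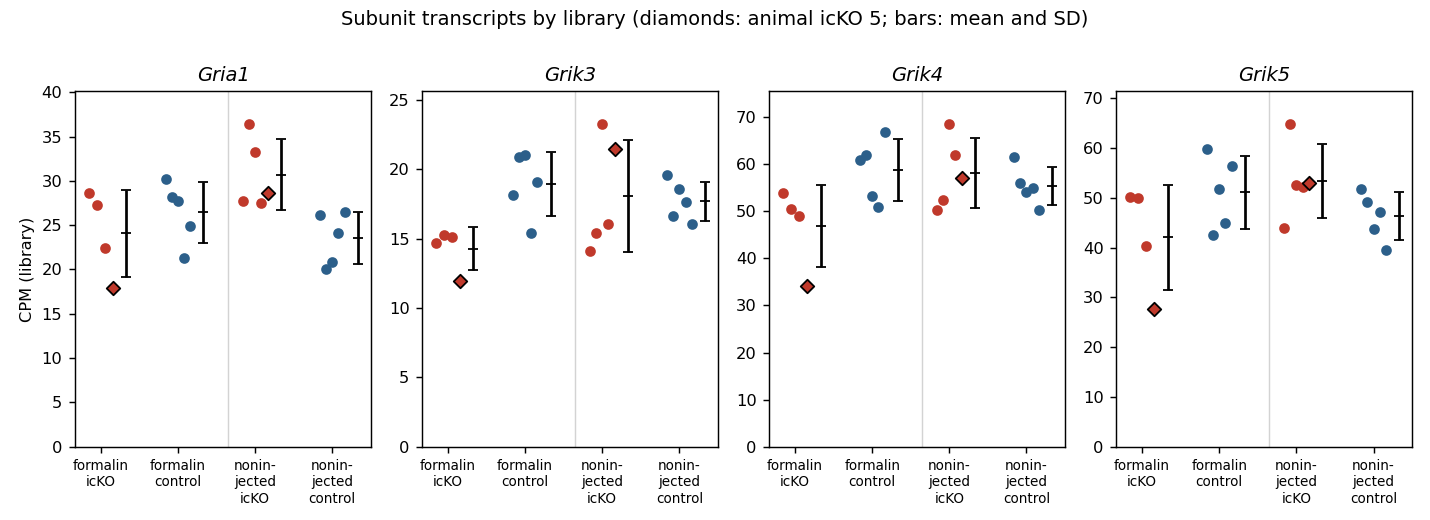
Levels of Gria1, Grik3, Grik4 and Grik5 in each library (CPM, y axis from 0), with icKO left of control by deposited name, first for formalin and then for noninjected libraries; diamonds are the libraries of the animal titled icKO 5, and bars give the mean and SD of 4 or 5 libraries. The icKO 5 formalin library is the lowest of its group for all 4 genes, and Gria1 is higher in all 5 icKO noninjected libraries than in the control ones.

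For Gria1, Grik3, Grik4 and Grik5 the genotype difference was lower with formalin than without injection, by -0.51 (SE 0.19), -0.43 (SE 0.18), -0.38 (SE 0.16) and -0.48 (SE 0.21) on the log2 scale. For Gria3 it was higher, by 0.31 (SE 0.14). None of these differences was called (adjusted p = 0.134, 0.175, 0.173, 0.187 and 0.198 in that order), and no gene of the 17671 was (0.0%; 4195 had an unadjusted p below 0.05, and DESeq2 called 793). The icKO 5 formalin library stood apart: it held 1641 CPM of 7 skeletal muscle markers, against at most 32.8 CPM in control libraries, and the icKO formalin library titled control 4 held 266 CPM. The icKO 5 formalin library also had the lowest Gria1, Grik3, Grik4 and Grik5 and the highest Gria3 of its group. Without that library the differences were -0.41 for Gria1, -0.36 for Grik3, -0.27 for Grik4, -0.34 for Grik5 and 0.16 for Gria3. The 26 alternative fits hold the fit without the icKO 5 formalin library 2 times. Over the 26 fits the difference ran from -0.85 to -0.41 for Gria1 and from -0.66 to -0.34 for Grik5. Each of these 2 genes gained a call in 1 of the 26 fits.

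Formalin against no injection, over both genotypes, gave no call for any subunit gene. The log2 folds ranged from -0.12 for Grik3 to 0.079 for Gria3, and the adjusted p from 0.848 to 0.94. Across all genes 0.0% were called (861 had an unadjusted p below 0.05, and DESeq2 called 4). Both libraries came from the same animal, and in 9 animals with both, Grik1 was higher in the formalin library in 4 and lower in 5, with a median log2 difference of -0.07 and a range of -0.30 to 0.41. The widest range was that of Grik5, from -0.93 to 0.51. The most one-sided counts were those of Gria3, higher with formalin in 6 of 9 animals, and of Grik4, lower in 6 of 9. The labels do not give the time between injection and sampling.

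Auxiliary subunits and scaffold proteins set how kainate and AMPA receptors reach and work in the membrane. Over animal totals, 0 of 20 genes of auxiliary subunits were called between icKO and control, with a median log2 fold of 0.076 against 0.005 over all genes. The auxiliary genes with the smallest p were Gsg1l, an AMPA receptor accessory protein, at 3.90 ± 1.38 CPM in icKO and 5.81 ± 1.04 CPM in control animals (log2 fold -0.50, SE 0.12, adjusted p = 0.0841), and Shisa7 (log2 fold -0.37, SE 0.12, adjusted p = 0.16). None of 14 scaffold and clustering genes was called (median 0.008). The closest were Dlg4, encoding the postsynaptic scaffold PSD-95, at 0.29 (SE 0.12, adjusted p = 0.25), and Dlg3 at -0.20 (SE 0.085, adjusted p = 0.256).

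In the noninjected libraries 4 of 19 tested auxiliary genes were called higher in icKO and 0 lower, beside 5.86% and 3.53% of all genes. They were named after their values were seen. Cacng5, encoding a transmembrane AMPA receptor regulatory protein (TARP), averaged 20.0 ± 5.50 CPM in icKO and 12.7 ± 1.47 CPM in control (SD, n = 5 each; log2 fold 0.71, SE 0.13, adjusted p = 0.00354). The TARP gene Cacng3 was low, at 1.46 ± 0.398 CPM in icKO and 0.815 ± 0.365 CPM in control (log2 fold 1.15, SE 0.26, adjusted p = 0.0139). The TARP gene Cacng7 averaged 59.97 ± 11.2 CPM in icKO and 45.1 ± 4.53 CPM in control (log2 fold 0.43, adjusted p = 0.0254), and the cornichon gene Cnih2 17.3 ± 2.97 CPM in icKO and 10.5 ± 2.56 CPM in control (log2 fold 0.69, adjusted p = 0.0237). Of 25 alternative fits, Cacng5 lost its call in 0, Cacng3 in 2, Cnih2 in 5 and Cacng7 in 6. Among scaffold genes, Dlg4 and Nptx2 were called higher and Dlg3 lower (log2 folds 0.51, 0.49 and -0.33; adjusted p = 0.0226, 0.04 and 0.0303), and they lost the call in 5, 11 and 7 of 25 fits. In formalin libraries 1 auxiliary gene was called, Gsg1l, lower at 2.71 ± 1.38 CPM in icKO (n = 4) and 5.91 ± 1.29 CPM in control (n = 5; log2 fold -0.93, SE 0.17, adjusted p = 0.00761), and Dlg1 was called higher among scaffold genes (0.46, adjusted p = 0.0411; lost in 16 of 26 fits).

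Of the NMDA receptor genes, Grin1, which encodes the obligatory subunit, and Grin3a were called higher in icKO in noninjected libraries, and both were named after their values were seen. Grin1 averaged 107 ± 18.5 CPM in icKO and 78.0 ± 9.75 CPM in control (SD, n = 5 each; log2 fold 0.53, SE 0.14, adjusted p = 0.0261). Grin3a averaged 43.0 ± 8.37 CPM in icKO and 29.6 ± 3.42 CPM in control (log2 fold 0.53, SE 0.16, adjusted p = 0.0411). They lost the call in 5 and 10 of 25 alternative fits. They are 2 of 4 Grin genes tested in that comparison, in which 5.86% of all genes were called higher, and with formalin 0 of the 4 were called. Over animal totals neither was called, with log2 folds of 0.28 for Grin1 (adjusted p = 0.273) and 0.20 for Grin3a (adjusted p = 0.473). Grin2c was called lower over the 6 agreeing animals (log2 fold -2.32, SE 0.35, adjusted p = 0.0414), where 0.293% of all genes were. Over all 10 animals it was not called, at -1.09 (SE 0.44, adjusted p = 0.249).

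Genes of metabotropic receptors, of glutamate synthesis and transport and of RNA editing gave no call over the totals of the 10 animals. Of 5 tested metabotropic receptor genes (median log2 fold 0.086), Grm5 and Grm4 had the smallest p, with log2 folds of 0.85 (SE 0.26, adjusted p = 0.151) and 0.27 (SE 0.16, adjusted p = 0.404). With formalin, Grm5 was called higher at 1.81 ± 0.611 CPM in icKO (n = 4) and 0.857 ± 0.241 CPM in control (n = 5; adjusted p = 0.0452), and lost the call in 17 of 26 fits. Of 11 genes of glutamate synthesis and transport (median 0.128), Slc17a7, the vesicular glutamate transporter VGLUT1, gave a log2 fold of 0.58 (SE 0.27, adjusted p = 0.319) and Glud1 0.22 (SE 0.10, adjusted p = 0.296). Over the 6 agreeing animals, where 0.602% of all genes were called higher, Slc17a7 was called higher (0.95, SE 0.14, adjusted p = 0.0425). The transporter gene Slc1a4 was called higher in noninjected libraries (0.30, adjusted p = 0.0474; lost in 19 of 25 fits). Of the 3 genes of adenosine-to-inosine editing enzymes (median 0.131), Adar gave 0.23 (SE 0.093, adjusted p = 0.242) and Adarb2 0.13 (SE 0.23, adjusted p = 0.804).

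Markers of other cells were summed per library beside these results. Markers of spinal cord and brain cells (Slc32a1, Gad2, Slc6a5, Mog and Olig2) came to 0.161 to 1.61 CPM in icKO and 0.384 to 0.756 CPM in control libraries, near 0 in both. A-fibre neuron markers spanned 2152 to 4233 CPM in icKO and 2429 to 3257 CPM in control libraries, with medians of 3524 CPM in icKO and 2688 CPM in control among noninjected libraries. Of these 8 genes, 1 was called higher over the 10 animals (Ntrk3, log2 fold 0.70, adjusted p = 0.00673) and 3 over the 6 agreeing animals. Of all genes, 0.601% and 0.602% were called higher there. In noninjected libraries 2 of the 8 were called higher, beside 5.86% of all genes. In formalin libraries 1 was, beside 3.05%. Peptidergic nociceptor markers spanned 1959 to 3561 CPM in icKO and 1941 to 3327 CPM in control libraries, with formalin medians of 2289 CPM in icKO and 2711 CPM in control. Of these 6 genes, 0 were called over the 10 animals. Over the 6 agreeing animals 3 were called lower (Adcyap1, Gfra3 and Trpv1, list median -0.52), beside 0.293% of all genes. In formalin libraries 2 were called lower, among them Gfra3 (list median -0.64), beside 0.905% of all genes. Non-peptidergic nociceptor markers spanned 736 to 1507 CPM in icKO and 975 to 1387 CPM in control libraries. Of these 6 genes, 1 was called lower in formalin libraries and 1 higher in noninjected libraries, where 5.86% of all genes were called higher. Over the 10 animals and over the 6 agreeing animals 0 were called. Erythroid markers spanned 220.3 to 1735 CPM in icKO and 134 to 350.3 CPM in control libraries, and neutrophil markers 294 to 3157 CPM in icKO and 171 to 815 CPM in control libraries. Of the 7 erythroid and 5 neutrophil genes, 6 and 2 were called higher in icKO in formalin libraries, beside 3.05% of all genes. None of them was called in noninjected libraries, over the 10 animals or over the 6 agreeing animals. The part of these cells in the subunit values was not tested.

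The genes whose levels over the 10 animals lay closest to those of Grik1 were searched among 13566 genes, as the mean absolute gap between log2 CPM values centred on each gene's own mean. They were Lrrn4 (gap 0.104), A3galt2 (0.106), Krt27 (0.108), Serpina1e (0.130), Plk5 (0.138) and Kcnn3 (0.154). A3galt2, an alpha-1,3-galactosyltransferase, averaged 25.2 CPM in icKO and 47.3 CPM in control animals, and Kcnn3, a calcium-activated potassium channel, 3.32 CPM in icKO and 6.39 CPM in control animals. Serpina1e belongs to a family of near-identical genes, so its own counts are uncertain. Of the other 8 subunit genes, Grik2 lay nearest with a gap of 0.380 and Gria1 farthest with 0.567, and Prdm12 itself had a gap of 0.489. The gap also grows where the size of the fold differs, so it does not rank shared pattern. Grik5, with a log2 fold of 0.012, had a gap of 0.473. Prdm12 fell more than Grik1 (23.8 CPM in icKO and 90.6 CPM in control animals) and separated the groups, whereas Grik2 did not. The search used the same animals that chose Grik1 and is a description.

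**Figure D5:**
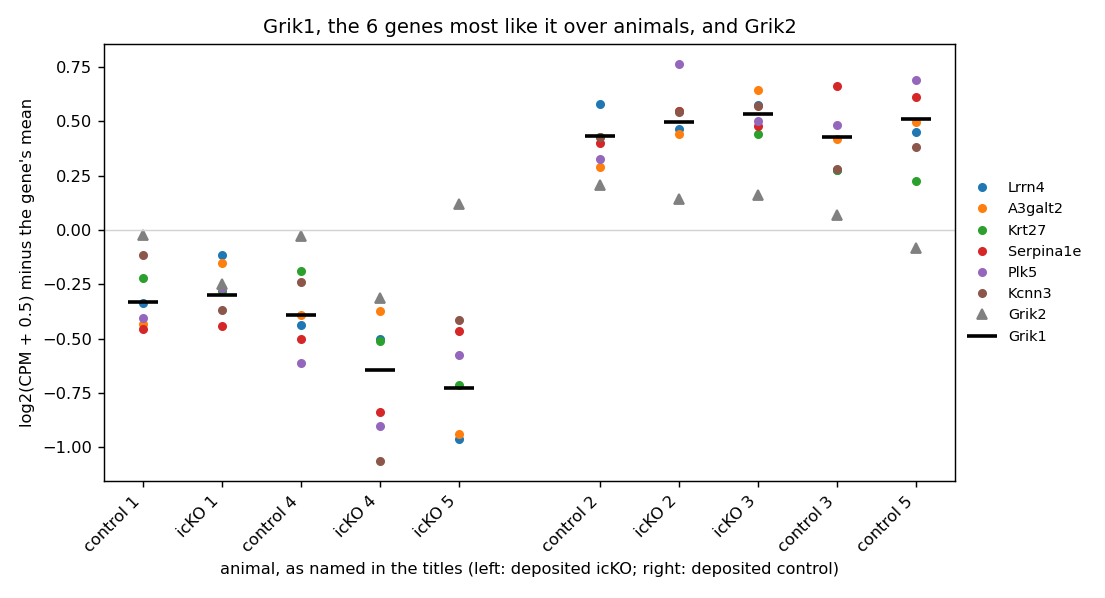
Level of Grik1 (black bars), of the 6 genes with the smallest gap to it (coloured points) and of Grik2 (grey triangles) in each animal, as log2(CPM + 0.5) minus the gene's own mean over the 10 animals (y axis), with the 5 animals deposited as icKO left of the 5 deposited as control. Grik1 and the 6 genes lie below their means in the icKO animals and above them in the control animals, and Grik2 stays nearer to its own mean.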

How the data were processed

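The authors deposited 1 table of raw counts per library, by Ensembl gene. The build was GRCm39 and the tools STAR 2.7.8a, featureCounts 2.0.1 and bcl2fastq 2.20.0.422, per the submitters' processing notes. The kit does not mark strand, per the labels' protocols. For the counting settings and the annotation release, the sources used here say nothing. Names were matched for 52083 IDs (94.0%), and 132 of 133 listed genes were found. Exon lengths and transcript sequences came from GENCODE M21 (GRCm38), so no coordinates are printed. No subunit gene shared over 0.99% of its exons with another gene.

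Counts were tested with edgeR 4.0.16 in R 4.3.3 (TMM, filterByExpr, robust quasi-likelihood, sex as covariate, Benjamini-Hochberg threshold 0.05), after a test on simulated data. Genotype used the summed libraries of each animal (icKO 1: noninjected only). Comparisons within or between agents used all 19 libraries in 1 fit with 4 groups. That fit left out the pairing by animal and treated the libraries as separate replicates, so its errors may be too small or too large. Alternatives were RLE factors, DESeq2 1.42.0, no filter, no sex term, leaving out animals or libraries, single-agent fits and replicate blocks. Both libraries of an animal share its number in the deposited names, so they are paired: their deviations correlated at 0.01 (control 1) to 0.41 over 9 pairs.

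The subunits, lists and the genotype grouping were chosen with earlier results of these data known. The named genes are the 9 subunit genes, Prdm12, up to 4 called genes per list or else the 2 with the smallest p, and the 6 genes nearest to Grik1 (mean log2 CPM of at least 1); genes called within an agent were added after their values were seen. Intervals cover the spread between animals or libraries only. Some results of the gene lists are not reported here.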

Additional observations from a re-analysis of the deposited data

Results flagged for a closer look

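For the 9 subunit genes and Prdm12, 40 groups of libraries (4 groups of 4 or 5 libraries for each gene) were searched for a single library far from the others of its group, and 3 were found; chance flags about 1 in 20 such groups. In the icKO formalin group, Gria2 was at 50.3 CPM in the library titled icKO 4, against 61.7 to 62.8 CPM in the others, a gap of 0.915 of the whole range. In the same group, Gria3 was at 64.9 CPM in the library titled icKO 5, against 44.9 to 47.0 CPM in the others (0.897 of the range); this is the library with 1641 CPM of skeletal muscle markers. In the icKO noninjected group, Prdm12 was at 38.1 CPM in the library titled control 4, against 22.1 to 23.5 CPM in the others (0.908 of the range).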

How the results depend on the processing

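For 70 log2 folds (the 9 subunit genes and Prdm12 in 7 comparisons) the alternative fits gave 1450 values, as each fit was read for every one of these genes. They include Grik1, chosen for its difference, and Prdm12, the deleted gene, so the tally is a description. They also include the repeated fit without the icKO 5 formalin library. Of the 1450 values, 1380 kept direction and side of the threshold, 19 lost a call, 7 gained one and 44 changed sign. No fold that changed sign was called. The cause was not tested for any of these changes. By deposited name over animal totals, 204 genes were called (165 over the 6 agreeing animals); without a filter 1811 (1880), with DESeq2 807 (1021), without the icKO 5 formalin library 342 (1422), and without a sex term 33 over the 6 animals. By title 0 were called, 851 without a filter and 71 with DESeq2. The 1658 genes of the noninjected comparison became 1104 without a sex term and 831 with the 6 agreeing animals. The 699 of the formalin comparison became 2129 without a filter, 1052 without a sex term, 1615 with the 6 animals, 205 without the icKO 5 formalin library, 1226 with DESeq2 and 31 with the formalin libraries alone. Formalin over noninjected gave 210 genes without a filter, 4 with DESeq2, and 1 each without a sex term and with the 6 animals; its dependence on genotype gave 2519 without a filter, 793 with DESeq2 and 65 with the 6 animals. With the animal as a replicate block both gave 0, as did the title number as a replicate block in the comparison by title, where control and icKO animals of the same number correlated at -0.11 to 0.29 and share only a number.

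Leaving out 1 animal gave 78 to 282 called genes by deposited name (fewest without control 3), 8 to 639 over the 6 animals (fewest without control 3, most without control 2) and 0 to 10 by title (10 without control 1). Leaving out 1 library gave 348 to 2392 in the noninjected comparison (fewest without icKO 1 noninjected), 93 to 1705 in the formalin comparison (fewest without control 5 formalin, most without control 1 formalin), 0 to 1 for formalin over noninjected and 0 to 864 for its dependence on genotype (most without control 1 formalin). Leaving out 1 animal gave Grik1 folds of -0.97 to -0.88 by deposited name and gave -1.16 to -0.94 over the 6 animals, where 3 of 6 fits lost the call (without control 3, control 5 or icKO 4; adjusted p up to 0.23). Folds near 0 changed sign within these ranges: by deposited name Grik4 -0.16 to 0.003, Grik5 -0.066 to 0.068, Gria3 -0.098 to 0.020 and Gria4 -0.031 to 0.067; over the 6 animals Grik4 -0.19 to 0.035, Gria1 -0.025 to 0.12, Gria3 -0.11 to 0.12 and Gria4 -0.049 to 0.15; by title Grik2 -0.14 to 0.019, Grik3 -0.10 to 0.061, Grik4 -0.10 to 0.047 and Gria3 -0.026 to 0.11; Grik3 noninjected -0.12 to 0.13, Gria2 formalin -0.081 to 0.030, and for formalin over noninjected Grik1 -0.039 to 0.079 and Prdm12 -0.18 to 0.028. Without the icKO 5 formalin library, Grik4 was 0.004 by deposited name; Gria3, Grik3, Grik4 and Grik5 were -0.078, 0.064, 0.051 and 0.023 over the 6 animals; Gria3 and Grik4 were -0.015 and 0.052 by title; and Prdm12 was 0.002 for formalin over noninjected. Without a sex term, Grik5 was -0.006 by deposited name and Grik4 0.007 by title. With the 6 animals, formalin over noninjected gave -0.078 for Grik1 and -0.052 for Gria2. Without length scaling, Gria2 made up 24.5% of the AMPA sum in icKO and 27.2% in control animals. Calls of Grik3 with formalin were gained without a filter (adjusted p = 0.0352) and without the icKO 1 noninjected library (adjusted p = 0.0424). The other gained calls, 1 fit each, were Grik1 and Prdm12 by title. For the difference of the genotype effect between agents they were Prdm12, Gria1 and Grik5. Depth limits the lowest of these transcripts, Grik3 and Grik2, which had 192 to 380 and 229 to 520 counts per library.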
